A study of Mus musculus with 60 samples.

Results

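Fatty acid oxidation and ketone body genes were followed in mouse liver after partial hepatectomy (PHx), the surgical removal of part of the liver, and after sham surgery. The set was chosen by gene name and holds 46 genes, all of them among the 14620 genes of the time course. Each of the tables that set morning against night operation lists 45 of them and lacks Fgf21. The mice were C57BL/6 males aged 8 weeks, operated on between 8 and 9 in the morning or between 8 and 9 at night. Livers of morning-operated sham and PHx mice were taken 4, 8, 12, 16, 20, 24, 28 and 32 h later, and livers of night-operated mice of both kinds 4 and 24 h later. Each of the 20 groups holds 3 mice with 1 RNA-seq library each, 60 libraries in all, of which 48 form the time course. The labels give no genotype, drug or diet that separates the groups. The RNA comes from whole liver, in which fewer cells of a type and less RNA per cell cannot be told apart.

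Hepatocytes burn fatty acids in mitochondria and in peroxisomes. Acyl-CoA synthetases activate the fatty acid, and the carnitine shuttle, with Cpt1a as its entry step, brings long chains into the mitochondrion, where cycles of beta-oxidation yield acetyl-CoA, while peroxisomes shorten very long and branched chains with a parallel set of enzymes. In fasting, the nuclear receptor PPAR-alpha switches on many of these genes together with Fgf21, Angptl4 and Pdk4, and the liver turns acetyl-CoA into ketone bodies, which Bdh1 interconverts. The 46 genes are grouped here as 6 for uptake and activation, 4 for the carnitine shuttle, 11 for mitochondrial beta-oxidation, 3 for electron transfer, 8 peroxisomal, 3 of both or unsettled compartment, 5 acyl-CoA thioesterases, Bdh1 for ketone bodies and 5 fasting signals and regulators.

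Of the 46 genes, 40 matched a start-site window in RefSeq (GRCm38.p6), which runs from 250 bases before to 50 bases after a gene's start. The motif AGGNCANAGGNCA, a form of the direct repeat that PPAR-alpha binds, was searched for on both strands. It lies in 0.381% of all 32851 windows and, among the 45 windows of the members, in that of Fabp1, which encodes the liver fatty acid-binding protein. The E-box CACGTG, which the clock proteins CLOCK and BMAL1 bind, lies in 7.15% of all windows and in those of Fgf21 and Acot4. The letters TATAAA lie in 13.6% of all windows and in those of Fabp1, Fgf21 and Acot4. A match describes letters and shows no binding. The 120 bases before the start are printed for these 3 genes, since they are the members with a match and each was called in a comparison that follows. They lie at chr6:71199759-71199878 on the plus strand (Fabp1), chr7:45615491-45615610 on the minus strand (Fgf21) and chr12:84038259-84038378 on the plus strand (Acot4), and capitals mark the matches, none of which overlap.
Fabp1: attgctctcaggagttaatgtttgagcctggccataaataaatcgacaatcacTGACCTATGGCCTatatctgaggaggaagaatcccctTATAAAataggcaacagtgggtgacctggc
Fgf21: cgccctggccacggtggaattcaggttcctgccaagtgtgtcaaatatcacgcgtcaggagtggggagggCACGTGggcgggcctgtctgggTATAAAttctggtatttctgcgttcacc
Acot4: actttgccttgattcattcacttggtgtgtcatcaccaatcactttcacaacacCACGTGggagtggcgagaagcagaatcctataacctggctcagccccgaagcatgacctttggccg
The direct repeat of Fabp1 lies on the minus strand, 67 to 55 bases before the start. The E-box begins 50 bases before the start in Fgf21 and 66 bases before it in Acot4. TATAAA begins 30 bases before the start in Fabp1 and 28 in Fgf21, and in Acot4 it lies upstream of the stretch shown.

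Time course values are log2(value + 1) as deposited, and the values before the logarithm sum to between 936550 and 1196904 per library. The summed level of 8 hepatocyte markers was lower in every PHx library than in every sham library at each time from 8 to 32 h, for example 64723 to 70330 against 86235 to 90607 at 20 h and 65028 to 78350 against 95580 to 107180 at 32 h. At 4 h it was higher in PHx (80299 to 96056 against 69654 to 77175). The summed level of 6 Kupffer cell and macrophage markers was lower in every PHx library at 4 h and higher in every one from 16 h on, at 675 to 751 against 323 to 393 at 28 h and 694 to 728 against 336 to 522 at 32 h. That of 3 skeletal muscle markers was at most 16.87. The summed neutrophil markers were 29.1 to 55.2 in PHx and 0 to 7.61 in sham at 4 h. Pancreatic acinar markers reached 3021 in 1 PHx library at 4 h and 1055 in 1 PHx library at 16 h, against at most 140 in sham. The part of these cells in the results was not tested. The time course library labelled sham replicate 1 at 4 h stands apart: it lists 3422 genes at 0, against 768 to 1414 elsewhere, and it correlates best with a night column of the separate 4 h sham table (r = 0.883 across genes, which are not independent replicates). Time course sham replicate 3 at 4 h correlated better with morning column 1 of that table (r = 0.935) than with column 3 (r = 0.916). Whether the library or the columns carry wrong labels was not tested. Some results of the time course at 4 h are therefore also given without sham replicate 1, on the deposited scale only. No fit after TMM scaling left that library out. The library IDs in the labels' descriptions begin differently for sham and PHx at 4 h, so that operation and ID series cannot be told apart there. The 24 h libraries of both operations share the ID series of PHx at 4 h, those of 28 and 32 h have a series of their own, and those of 8 to 20 h carry only time and number. Time and ID series therefore cannot be told apart across the course.

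Scaling decided much of the balance between higher and lower genes. The median PHx minus sham difference over all genes was -0.32 on the log2 scale at 4 h and -0.15 at 8 h, and it lay between -0.01 and 0.14 from 12 h on. TMM scaling, which assumes that most genes do not change, moved the 4 h median to 0.02. Genes are called at an adjusted p below 0.05 in a limma fit over the 48 libraries, with Benjamini-Hochberg adjustment over 12957 genes. A gene that rose or fell "in both scalings" was called in the same direction on the deposited scale and after TMM scaling.

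On the deposited scale, the members called higher most outnumbered those called lower at 12 h after PHx. At that time 16 of the 46 genes were higher than in sham and 1 was lower, and TMM scaling called the same 17 genes. Without sham replicate 3, 9 were higher and 3 lower. Over all genes 7.57% were higher and 8.63% lower (8.33% and 8.34% with TMM), against 34.8% and 2.17% of the members. The members' median difference was 0.40 on the log2 scale, that of all genes -0.01. At 8 h, 13 members were higher (28.3%, all genes 6.04%) and 10 lower (21.7%, all genes 18.7%), and TMM scaling gave 20 higher and 5 lower (all genes 10.6% and 11.6%). All 13 rises at 8 h and 5 of the falls were called in both scalings.

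At 16 h the balance was the other way around. There 1 member was higher (2.17%, all genes 7.31%) and 8 were lower (17.4%, all genes 6.35%), and TMM scaling called these 9 and 1 more, lower (all genes 6.31% and 7.95%). The members' median was -0.12, that of all genes 0.05.

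At the other times the split moved with the scaling. At 4 h, 11 members were called (all genes 46.9%), 4 higher and 7 lower (all genes 9.32% and 37.6%), whereas TMM scaling called 24 (all genes 40.4%), 22 higher and 2 lower (all genes 21.6% and 18.8%). Without the doubtful sham library, 9 were called at 4 h on the deposited scale, 4 higher and 5 lower. At 20 h, 14 were called (all genes 18.4%), 8 higher and 6 lower (all genes 12.5% and 5.87%), against 3 and 10 with TMM (all genes 6.96% and 8.82%). At 24 h, 5 were called (all genes 12.3%), 3 higher and 2 lower (all genes 9.19% and 3.11%), against 1 and 6 with TMM (all genes 5.42% and 5.53%). At 28 h, 9 were called (all genes 20.5%), 6 higher and 3 lower (all genes 14.9% and 5.59%), against 1 and 9 with TMM (all genes 7.63% and 8.87%). At 32 h, 5 were called (all genes 15.4%), 4 higher and 1 lower (all genes 11.8% and 3.60%), against 2 and 5 with TMM (all genes 5.76% and 6.41%). From 24 h on, the share of members called was below that of all genes on the deposited scale (10.9%, 19.6% and 10.9% of members at 24, 28 and 32 h) and above it with TMM (15.2%, 21.7% and 15.2% of members, against 11%, 16.5% and 12.2% of all genes).

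Single libraries moved many of these counts by more than 1.5 times, and most often the split. At 8 h the 23 calls became 15 without sham replicate 3, and the 10 lower genes became 5 without it or without PHx replicate 1. At 16 h the 1 higher and 8 lower became 2 and 5 without PHx replicate 2. At 20 h the 8 higher and 6 lower became 5 and 14 without PHx replicate 2, 5 and 3 without PHx replicate 1, 4 and 4 without PHx replicate 3, 4 and 5 without sham replicate 3, and 5 and 6 without sham replicate 2.

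At 24 h the 3 higher and 2 lower became 0 and 3 without PHx replicate 1, 1 and 2 without sham replicate 2 or 3, and 4 and 1 without PHx replicate 3. At 28 h the 6 higher and 3 lower turned to 1 and 4 without sham replicate 3 or PHx replicate 2, and were 3 and 3 without sham replicate 1. At 32 h the 4 higher and 1 lower became 2 and 2 without sham replicate 1. The 1 lower gene at 32 h was lost without any 1 of the other 5 libraries, and the 5 calls became 3 without sham replicate 2 or PHx replicate 2. More members were higher than lower in each of these fits at 12 h, whereas the balance at 20, 24 and 28 h turned with single libraries.

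**Figure D1:**
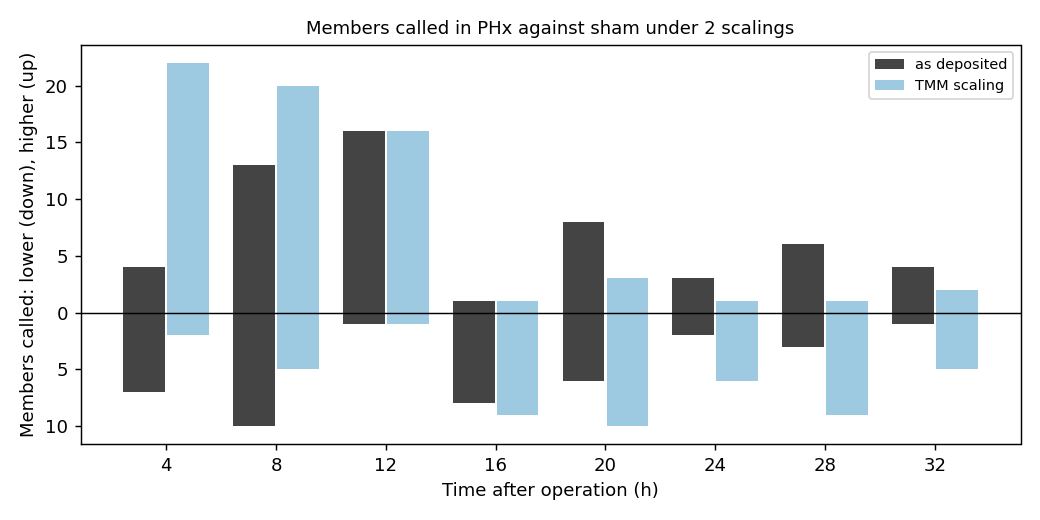
Members called in PHx against sham at each time, higher drawn upward and lower downward, on the deposited scale and after TMM scaling. At 12 h both give 16 higher and 1 lower, whereas at 4 h the 4 higher and 7 lower become 22 higher and 2 lower.

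**Figure D2:**
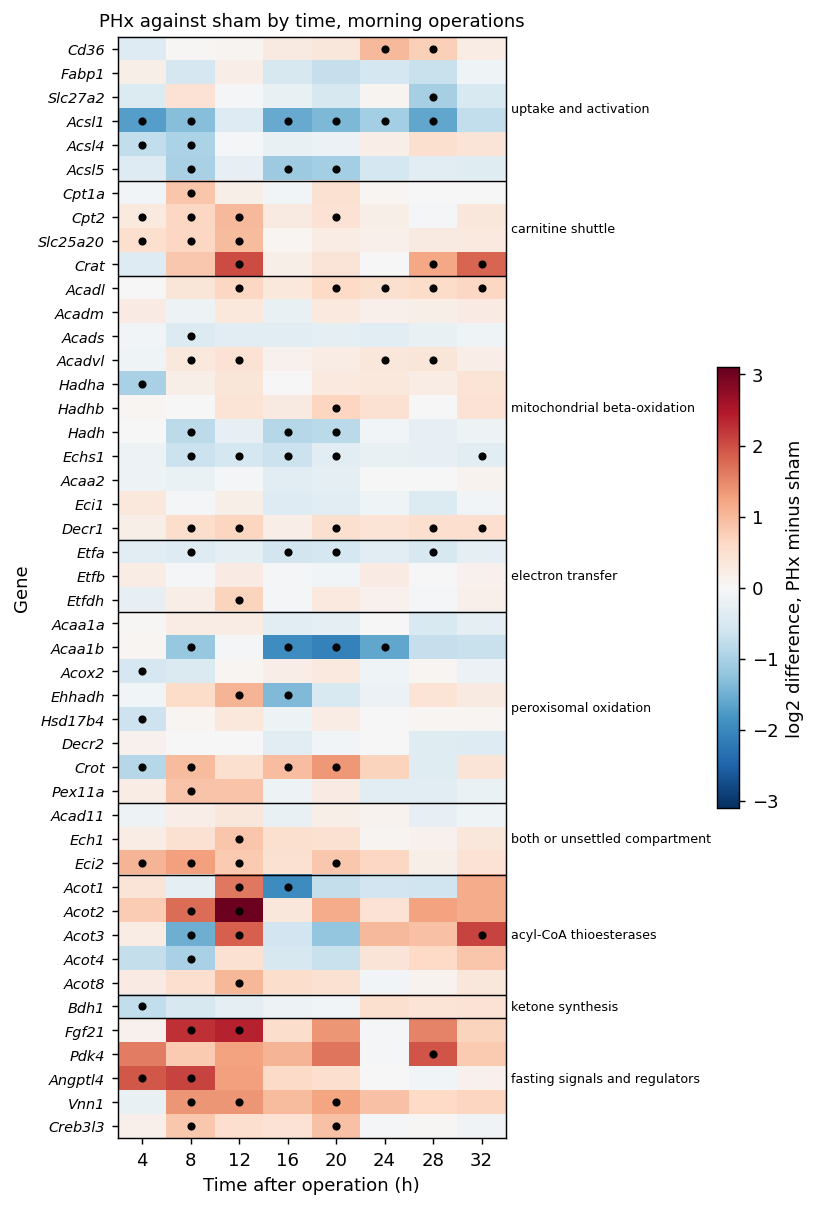
Log2 difference, PHx minus sham, of each of the 46 genes (rows, grouped by role) at each time after a morning operation (columns), with called genes marked. Red is higher in PHx and blue is lower, and the strongest value is that of Acot2 at 12 h (3.03).

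Acsl1, the main long-chain acyl-CoA synthetase of liver, fell after PHx at 6 of the 8 times in both scalings. At 4 h its log2 values were 6.66, 6.85 and 6.03 in PHx against 8.25, 8.15 and 8.28 in sham. At 28 h they were 6.90, 6.03 and 7.28 against 8.29, 8.45 and 8.32. The lowest Acsl1 library of all was PHx replicate 2 at 16 h, where PHx stood at 6.50, 5.63 and 6.47 against 7.62, 7.78 and 7.89. At 8 h it stood at 7.03, 6.79 and 6.94 against 8.37, 8.04 and 8.29, at 20 h at 5.99, 7.17 and 6.28 against 8.00, 7.89 and 7.72, and at 24 h at 7.45, 7.08 and 6.84 against 8.30, 8.05 and 8.14. Every PHx library lay below every sham library at these 6 times. The difference was -1.71 at 4 h (SE 0.28, limma adjusted p 5.09e-06) and -1.62 at 28 h. At the other called times it was -1.31 (8 h), -1.57 (16 h), -1.39 (20 h) and -1.04 (24 h). At 12 h the difference was -0.40 (adjusted p 0.377), and at 32 h it was -0.77 (adjusted p 0.0557), called after TMM scaling only. The call at 24 h was lost without PHx replicate 3 (adjusted p 0.0593).

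Acsl5, a further acyl-CoA synthetase, fell in both scalings at 8 h (-1.0), 16 h (-1.12) and 20 h (-1.06). At 16 h it stood at 6.14, 6.18 and 6.14 in PHx against 7.55, 7.31 and 6.99 in sham, and at 20 h at 5.96, 6.47 and 6.17 against 7.07, 7.38 and 7.31, with no overlap at either time. Acsl4, which prefers arachidonic acid, stood at 3.19, 3.07 and 3.11 in PHx against 4.06, 4.19 and 4.05 in sham at 8 h, also apart, and fell by 0.98 on the log2 scale in both scalings (adjusted p 0.000501). Its value at 4 h (-0.76, adjusted p 0.00304) was called on the deposited scale only (TMM -0.29, adjusted p 0.236). From 24 h on Acsl4 differed by 0.20 to 0.50, uncalled, and its PHx response differed among the 8 times (adjusted p 0.000529).

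The fatty acid translocase Cd36 rose at 24 h in both scalings, to 3.95, 3.69 and 3.59 in PHx from 2.77, 2.24 and 3.18 in sham (difference 1.01, SE 0.27, adjusted p 0.0114). The groups did not overlap. The edgeR quasi-likelihood test on the 24 h counts also called it higher (0.97, adjusted p 0.0266). The limma call at 24 h was lost without sham replicate 2 (adjusted p 0.111) or PHx replicate 1 (0.0636). The summed adipocyte markers at 24 h were 11 to 18.59 in PHx and 6.63 to 32.55 in sham. Those of Kupffer cells and macrophages were 297 to 368 in PHx and 161 to 182 in sham. Those of sinusoidal endothelium were 65.4 to 83.9 in PHx and 52.3 to 76.4 in sham. The part of these cells in the Cd36 difference was not tested. At 28 h, where the groups overlapped (3.31, 3.97 and 3.01 against 2.30, 3.29 and 2.45), Cd36 was 0.75 higher on the deposited scale only, a call lost without sham replicate 1 (adjusted p 0.22), sham replicate 3 (0.168), PHx replicate 1 (0.0704) or PHx replicate 2 (0.47, adjusted p 0.299).

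Slc27a2, a very long-chain acyl-CoA synthetase and transporter, fell at 28 h in both scalings, to 8.98, 8.75 and 8.85 in PHx from 9.84, 10.03 and 9.77 in sham. The groups were apart, and the difference was -1.02 (SE 0.20, adjusted p 0.000346). Its response differed among the times (adjusted p 0.00305). Fabp1, whose promoter is printed above, differed by -0.72 to 0.21 and was called at no time of the course on the deposited scale. After TMM scaling it was higher at 4 h (0.69) and lower at 20 h (-0.88) and 28 h (-0.87). At 28 h its libraries stood at 14.01, 13.47 and 13.84 in PHx against 14.65, 14.56 and 14.16 in sham, apart on the deposited scale.

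Of the 4 carnitine shuttle genes, 3 rose at 12 h in both scalings. The share of all genes called at 12 h in either direction was 16.2%, and 16.7% with TMM. The shares called higher are given above, and the count was not tested against them. Cpt2, the inner-membrane carnitine palmitoyltransferase, stood at 7.72, 7.74 and 7.63 in PHx and 6.83, 6.88 and 6.34 in sham. Slc25a20, the carrier that exchanges acylcarnitine for carnitine, stood at 7.09, 7.22 and 7.30 in PHx and 6.54, 6.34 and 5.81 in sham. Crat, carnitine acetyltransferase, stood at 4.70, 5.09 and 4.45 in PHx and 3.30, 3.02 and 1.84 in sham. No PHx library overlapped sham in any of the 3 genes, and sham replicate 3 was the lowest library in each. The differences were 1.01 for Cpt2 (SE 0.13, adjusted p 8.47e-07), 0.97 for Slc25a20 (SE 0.15, adjusted p 1.79e-05) and 2.03 for Crat (SE 0.32, adjusted p 2.74e-05). They were called in both scalings and without each single library.

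Cpt2 and Slc25a20 were already higher earlier in both scalings. At 8 h both differed by 0.64 (adjusted p 0.000267 and 0.00162). At 4 h Slc25a20 stood at 6.39, 6.36 and 6.37 in PHx against 5.88, 5.83 and 5.82 in sham, apart and 0.53 higher (adjusted p 0.00413), also called without sham replicate 1. Cpt2 was 0.31 higher at 4 h (adjusted p 0.0487), a call lost when any 1 of sham replicates 2 and 3 and PHx replicates 1 and 2 was left out (adjusted p 0.146 to 0.224), and the difference was 0.48 without sham replicate 1. At 20 h Cpt2 was 0.44 higher on the deposited scale only, and not without PHx replicate 3 (adjusted p 0.0766).

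Cpt1a, the outer-membrane enzyme that controls entry, rose at 8 h only, to 5.95, 5.51 and 5.83 from 4.62, 4.77 and 5.29 in sham (0.87, SE 0.24, adjusted p 0.0072). The call was lost without sham replicate 1 (adjusted p 0.0532). At 12 h sham had reached 6.23, 6.07 and 5.86 and PHx stood at 6.20, 6.51 and 5.99, so that the groups overlapped. Its response was not called as different among the times (adjusted p 0.166).

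Crat was higher again late, in both scalings. At 32 h the PHx libraries were at 4.31, 4.79 and 4.35 and the sham libraries at 2.61, 2.60 and 2.83, apart by more than either group's range. At 28 h they were at 4.11, 5.11 and 4.27 against 3.04, 4.04 and 2.82, also apart. The difference was 1.80 at 32 h (SE 0.32, adjusted p 0.00021) and 1.2 at 28 h (adjusted p 0.00749), the latter lost without sham replicate 3 (adjusted p 0.0621) or PHx replicate 2 (0.0774). In between it was 0.18 at 16 h, 0.40 at 20 h and 0.01 at 24 h, uncalled, and the response differed among the times (adjusted p 0.000215).

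Inside the mitochondrion, enzymes of successive steps went different ways. Acadl, the long-chain acyl-CoA dehydrogenase, rose in both scalings at 12 and 20 h. At 12 h it stood at 8.39, 8.48 and 8.58 in PHx against 8.04, 7.86 and 7.65 in sham (0.63, adjusted p 0.00311). At 20 h it stood at 8.17, 8.37 and 8.22 against 7.62, 7.66 and 7.6 (0.63, adjusted p 0.00344). Neither time had an overlap. On the deposited scale only, it was also higher at 24 h (0.49), 28 h (0.57) and 32 h (0.64). At 24 h it stood at 8.42, 8.13 and 7.76 against 7.74, 7.74 and 7.37, and at 32 h at 8.55, 8.64 and 8.45 against 7.72, 7.90 and 8.09, apart at both. The 24 h call was lost without sham replicate 3 (adjusted p 0.18), PHx replicate 1 (0.238) or PHx replicate 2 (0.0758), and the 28 h call without sham replicate 3 (adjusted p 0.065) or PHx replicate 2 (0.33, adjusted p 0.125).

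Acadvl, the very long-chain dehydrogenase, rose in both scalings at 8 h (0.34) and 12 h (0.44, adjusted p 0.0121). At 12 h it stood at 8.06, 8.05 and 8.11 against 7.71, 7.71 and 7.48, with no overlap. The 8 h call was lost when any 1 of sham replicates 1, 2 and 3 and PHx replicates 1, 2 and 3 was left out (adjusted p 0.0699 to 0.102) and the 12 h call without sham replicate 3 (adjusted p 0.0764). At 24 h it stood at 7.90, 7.48 and 7.51 against 7.43, 7.05 and 7.32. Higher values at 24 h (0.36) and 28 h (0.38) were called on the deposited scale only, the first lost without sham replicate 2 (adjusted p 0.274), sham replicate 3 (0.0748) or PHx replicate 1 (0.23, adjusted p 0.33) and the second without sham replicate 3 (adjusted p 0.132), PHx replicate 2 (0.0554) or PHx replicate 3 (0.0727).

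Decr1, the dienoyl-CoA reductase for unsaturated chains, also rose in both scalings at 8 h (0.54) and 12 h, where it stood at 6.59, 6.44 and 6.74 against 6.13, 6.04 and 5.57 (0.68, adjusted p 0.00181). The 8 h call was lost without sham replicate 2 (adjusted p 0.0524). On the deposited scale only, it was higher by 0.49 at 20 h, 0.52 at 28 h and 0.51 at 32 h. These were lost at 20 h without sham replicate 3 (adjusted p 0.0948) or PHx replicate 2 (0.117), at 28 h without sham replicate 1 (adjusted p 0.0549), sham replicate 3 (0.071) or PHx replicate 1 (0.0638) and at 32 h when any 1 of sham replicates 1 and 2 and PHx replicates 1 and 2 was left out (adjusted p 0.059 to 0.108).

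Echs1, the short-chain enoyl-CoA hydratase of the next step, fell in both scalings at 8 h (-0.67, adjusted p 4.22e-05), 12 h (-0.54), 16 h (-0.65), 20 h (-0.34) and 32 h (-0.36). At 16 h its PHx libraries were at 5.54, 5.54 and 5.42 and its sham libraries at 6.24, 6.17 and 6.06. At 12 h, where Acadl, Acadvl and Decr1 were higher, it stood at 5.58, 5.47 and 5.66 against 6.22, 6.22 and 5.88. At 32 h it stood at 5.68, 5.62 and 5.55 against 5.87, 6.06 and 6.01. PHx lay below sham in every library at 16 and 32 h, and at 12 h as well. The calls at 8, 12 and 16 h held without each library, whereas the 20 h call was lost when any 1 of sham replicates 1 and 3 and PHx replicates 1 and 3 was left out (adjusted p 0.0833 to 0.153) and the 32 h call when any 1 of sham replicates 2 and 3 and PHx replicates 1, 2 and 3 was left out (adjusted p 0.0576 to 0.115).

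Hadh, the short-chain hydroxyacyl-CoA dehydrogenase, fell in both scalings at 16 h (-0.89, adjusted p 0.0127) and 20 h (-0.84, adjusted p 0.0165). At 16 h it stood at 7.66, 6.31 and 7.50 in PHx against 8.05, 7.96 and 8.13 in sham, and PHx replicate 2 lay far below the other PHx libraries. The 16 h call was lost without sham replicate 3 (adjusted p 0.0514) or PHx replicate 2 (-0.47, adjusted p 0.253). The 20 h call was lost without sham replicate 3 (adjusted p 0.075), PHx replicate 1 (0.128) or PHx replicate 3 (0.111). At 8 h Hadh was lower (-0.82) on the deposited scale only, not called without sham replicate 3 (adjusted p 0.0526) or PHx replicate 1 (0.0908).

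Hadha and Hadhb encode the subunits of the trifunctional protein, which handles long chains. Hadha fell at 4 h in both scalings, to 6.96, 7.24 and 6.44 from 8.15, 7.89 and 7.61 in sham (-1.0, SE 0.21, adjusted p 0.000174; TMM -0.51, adjusted p 0.0487). No library overlapped, and the gene stayed called on the deposited scale without sham replicate 1. From 8 h on it differed by 0.00 to 0.42, uncalled, and its response differed among the times (adjusted p 0.00273). Hadhb differed by 0.06 at 4 h (adjusted p 0.849; TMM 0.55, adjusted p 0.0364) and was 0.68 higher at 20 h on the deposited scale only, lost without sham replicate 2 (adjusted p 0.084), sham replicate 3 (0.0917), PHx replicate 2 (0.44, adjusted p 0.212) or PHx replicate 3 (0.0665).

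Of the remaining cycle enzymes, Acads, the short-chain dehydrogenase, was lower at 8 h (-0.43) on the deposited scale only, at 5.10, 4.98 and 5.21 in PHx against 5.52, 5.49 and 5.58 in sham, lost when any 1 of sham replicates 1 and 3 and PHx replicates 1 and 2 was left out (adjusted p 0.0556 to 0.107). Acadm, the medium-chain dehydrogenase, differed by -0.22 to 0.33 and was called at no time on the deposited scale. Nor were the mitochondrial thiolase Acaa2 and the isomerase Eci1, with differences from -0.35 to 0.10 and from -0.43 to 0.33. At 4 h TMM scaling called all 3 higher, by 0.76 (Acadm), 0.34 (Acaa2) and 0.83 (Eci1). The signs of Acaa2 (-0.16), Acads (-0.08), Acadvl (-0.13) and Echs1 (-0.17), uncalled at 4 h on the deposited scale, turned with TMM, which called them higher there. TMM scaling also called lower Acaa2 at 16 and 20 h, Acads at 20, 24 and 28 h, Eci1 at 28 h and Echs1 at 24 and 28 h. At 4 h Acadm stood at 9.05, 9.01 and 8.21 in PHx against 8.47, 8.50 and 8.52 in sham, overlapping.

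Etfa, a subunit of the flavoprotein that takes electrons from the dehydrogenases, fell in both scalings at 16 h (-0.57), 20 h (-0.54) and 28 h (-0.50). At 20 h it stood at 7.13, 7.77 and 7.32 in PHx against 8.01, 7.89 and 7.95 in sham, below sham in every library. So it was at 28 h, at 7.37, 6.71 and 7.45 against 7.67, 7.72 and 7.64. The calls were lost at 16 h without PHx replicate 2 (adjusted p 0.0835), at 20 h without PHx replicate 1 (adjusted p 0.0786) and at 28 h without PHx replicate 2 (-0.27, adjusted p 0.196). At 8 h it was lower (-0.41) on the deposited scale only, lost when any 1 of sham replicates 1, 2 and 3 and PHx replicates 1, 2 and 3 was left out (adjusted p 0.0621 to 0.095). Etfdh, which passes the electrons on to ubiquinone, rose at 12 h in both scalings, to 7.77, 7.73 and 7.72 from 7.18, 7.27 and 6.68 (0.70, adjusted p 0.000569), apart and called without each library. Etfb, the partner subunit of Etfa, differed by -0.10 to 0.25 and was called at no time on the deposited scale, and after TMM scaling at 4 h only (0.72).

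The peroxisomal genes moved one by one. Acaa1b, a peroxisomal thiolase, fell in both scalings at 8 h (-1.17), 16 h (-1.92), 20 h (-2.09) and 24 h (-1.61). At 16 h it stood at 5.95, 6.17 and 5.77 in PHx against 8.13, 7.56 and 7.96 in sham. At 20 h it stood at 6.50, 7.06 and 5.38 against 8.14, 8.68 and 8.39. At 8 h it stood at 7.10, 7.03 and 6.73 against 8.19, 7.79 and 8.39, and at 24 h at 6.29, 6.83 and 6.35 against 8.04, 8.19 and 8.07. Every PHx library was the lower at these 4 times, and the 4 calls held without each library (adjusted p 8.90e-05 at 16 h and 2.55e-05 at 20 h). At 12 h, where sham replicate 3 was at 6.22 and the other sham libraries at 8.14 and 7.86, the difference was -0.03. The response differed among the times (adjusted p 0.000797).

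Acaa1a, the other peroxisomal thiolase, differed by -0.47 to 0.23 and was called at no time on the deposited scale. After TMM scaling it was higher at 4 h (0.52) and lower at 28 h (-0.65), where it stood at 4.76, 4.58 and 5.04 in PHx against 5.29, 5.39 and 5.10 in sham. Of the 50-base words in the Acaa1b transcript, 35.5% also occur in Acaa1a, and how the authors assigned shared reads is not stated. The split of reads between these copies is therefore uncertain.

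Ehhadh, the peroxisomal bifunctional enzyme and a textbook PPAR-alpha target, rose at 12 h and fell at 16 h in both scalings. At 12 h it stood at 6.68, 7.30 and 6.94 in PHx against 6.34, 6.33 and 5.12 in sham (1.05, SE 0.30, adjusted p 0.0135). At 16 h it stood at 5.36, 5.70 and 5.30 against 6.99, 6.73 and 6.77 (-1.38, SE 0.30, adjusted p 0.00134). PHx lay above every sham library at 12 h and below every one at 16 h. The 16 h call held without each library, whereas the 12 h call was lost without sham replicate 3 (0.64, adjusted p 0.165) or PHx replicate 2 (0.0787). The response differed among the times (adjusted p 0.00073).

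Crot, which makes carnitine esters of chains shortened in peroxisomes, was higher in both scalings at 8 h (0.97), 16 h (0.95) and 20 h (1.35). At 20 h it stood at 8.80, 9.46 and 9.33 in PHx against 7.77, 8.16 and 7.61 in sham (SE 0.26, adjusted p 0.000315). Its sham level ran from 9.51, 9.09 and 8.77 at 4 h to 6.84, 6.99 and 7.51 at 16 h, when PHx was at 8.02, 8.06 and 8.12. Among the 46 genes it had the smallest adjusted p for a response that differed among the times (8.33e-05). At 4 h PHx was at 8.68, 8.53 and 7.55, and Crot was lower on the deposited scale only (-0.87, TMM -0.37), and not without sham replicate 1 (adjusted p 0.0532) or PHx replicate 3 (-0.52, adjusted p 0.114). The 16 h call was lost without sham replicate 1 (adjusted p 0.0699).

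Pex11a, a factor in peroxisome division, was 0.89 higher at 8 h in both scalings (adjusted p 0.0462), lost when any 1 of sham replicates 1, 2 and 3 and PHx replicates 1 and 3 was left out (adjusted p 0.0562 to 0.162). Acox2, the oxidase of branched chains and bile acid precursors, and Hsd17b4, a second bifunctional enzyme, were lower at 4 h on the deposited scale only (-0.53 and -0.64; TMM -0.04 and -0.14). Acox2 was not called at 4 h when any 1 of sham replicates 1 and 3 and PHx replicates 1 and 3 was left out (adjusted p 0.0625 to 0.147). Hsd17b4 stayed called at 4 h without each library, at -0.38 without PHx replicate 3. Decr2, the peroxisomal dienoyl-CoA reductase, differed by -0.41 to 0.14 and was called at no time on the deposited scale. After TMM scaling it was higher at 4 h (0.63) and lower at 28 and 32 h (-0.57 and -0.60).

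Side by side, mitochondrial and peroxisomal oxidation did not move as blocks. Of the 17 mitochondrial genes (Cpt1a, Cpt2, Slc25a20, the 11 enzymes of the cycle and the 3 of electron transfer), 6 were higher and 1 lower at 12 h, with a median difference of 0.33. Of the 8 peroxisomal genes, 1 was higher and 0 lower at 12 h, with a median of 0.28. The 5 thioesterases were counted in neither compartment. Of these, the mitochondrial Acot2 and the peroxisomal Acot3 and Acot8 were also higher at 12 h in both scalings. At 16 h, 0 mitochondrial genes were higher and 3 lower (median -0.07), and 1 peroxisomal gene was higher and 2 lower (median -0.25). At 28 h the medians were 0.00 and -0.35, and at 32 h 0.16 and -0.20, with 0 of the 8 peroxisomal genes called at either time on the deposited scale. TMM scaling gave the same counts at 12 h and 1 more lower mitochondrial gene at 16 h. At 28 h it gave 0 higher and 4 lower of the 17 mitochondrial and 0 higher and 2 lower of the 8 peroxisomal genes, and at 32 h 0 and 2, and 0 and 1. The medians over all genes were -0.01, 0.05, 0.13 and 0.14 at these 4 times. The share of all genes called in either direction was 16.2%, 13.7%, 20.5% and 15.4%, and with TMM 16.7%, 14.3%, 16.5% and 12.2%. With so few genes per compartment, the counts were not tested against these shares. The difference between the compartments was not tested.

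**Figure D3:**
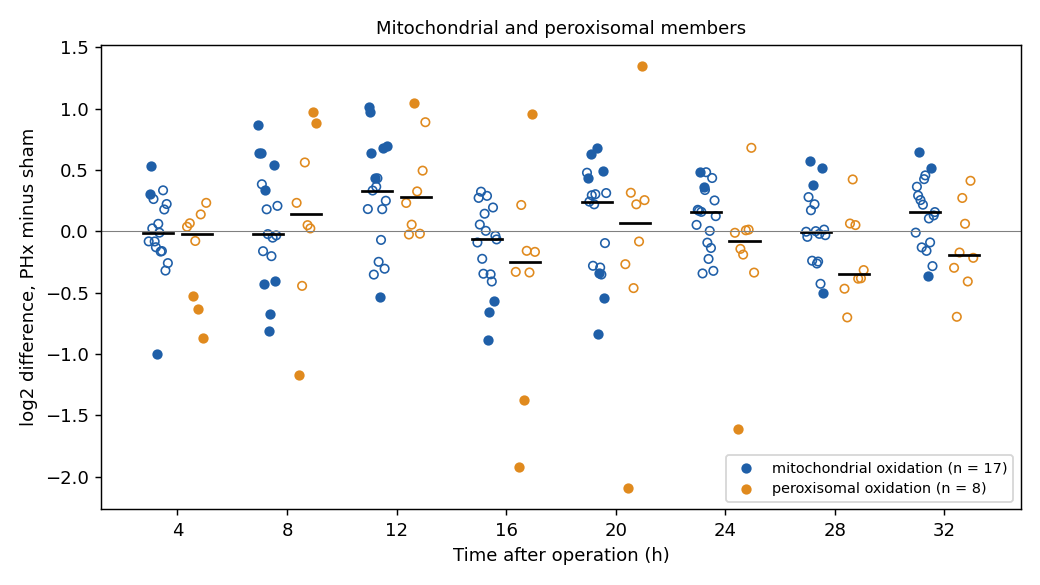
Log2 difference, PHx minus sham, of the 17 mitochondrial and the 8 peroxisomal genes at each time, with called genes filled and a line at each median. The widest spread is among peroxisomal genes at 20 h, from -2.09 (Acaa1b) to 1.35 (Crot).

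Among genes of both or unsettled compartment, Eci2, an isomerase for unsaturated chains, rose at 4, 8 and 12 h in both scalings. At 4 h it stood at 7.42, 7.36 and 7.43 in PHx against 6.47, 6.58 and 6.03 in sham (1.05, SE 0.24, adjusted p 0.000626). At 8 h it stood at 7.77, 7.29 and 7.80 against 6.38, 6.09 and 6.54 (1.28, adjusted p 0.000135). PHx was above sham throughout, and both calls held without each library, the doubtful sham library included. The 12 h call (0.82) was lost without sham replicate 3 (adjusted p 0.12), PHx replicate 1 (0.0625) or PHx replicate 3 (0.0544), and a 20 h call on the deposited scale only (0.82) when any 1 of sham replicates 2 and 3 and PHx replicates 1 and 3 was left out (adjusted p 0.05 to 0.0782). Ech1, a dienoyl-CoA isomerase, rose at 12 h in both scalings, to 7.91, 7.83 and 7.69 from 6.96, 7.03 and 6.86 (0.86, adjusted p 0.00625). Acad11, an acyl-CoA dehydrogenase of long chains, differed by -0.26 to 0.34 and was called at no time in either scaling. At 12 h it stood at 8.09, 8.33 and 7.94 against 7.97, 7.94 and 7.43, overlapping.

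The acyl-CoA thioesterases, which release fatty acid from CoA, held the largest change. Acot2, the mitochondrial form, stood at 4.25, 5.08 and 4.48 in PHx at 12 h against 2.31, 1.70 and 0.71 in sham (3.03, SE 0.47, adjusted p 1.88e-05). At 8 h it stood at 3.22, 3.46 and 3.84 against 1.33, 1.92 and 2.05 (1.74, adjusted p 0.00572). The lowest PHx library was above the highest sham library at both times, and both calls held in both scalings and without each library. At 28 h the difference was 1.26 and uncalled (adjusted p 0.055), with PHx replicate 2 at 4.90 and the others at 2.84 and 2.27.

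Acot1, a cytosolic form, rose at 12 h (1.63, adjusted p 0.0307) and fell at 16 h (-1.96, adjusted p 0.0101) in both scalings. At 12 h the PHx libraries (5.20, 6.39 and 6.14) overlapped the sham libraries (5.42, 4.61 and 2.79). At 16 h PHx stood at 3.72, 2.45 and 3.61 and sham at 5.27, 5.36 and 5.01, apart. The rise was lost without sham replicate 3 (0.89, adjusted p 0.299), PHx replicate 2 (0.127) or PHx replicate 3 (0.0999), and the fall without PHx replicate 2 (adjusted p 0.0979). Of the 50-base words of Acot2, 24.6% also occur in Acot1, so the split of reads between Acot1 and Acot2 is uncertain.

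Acot3, a peroxisomal form, was higher by 1.86 at 12 h and 2.1 at 32 h in both scalings. At 32 h it stood at 3.62, 3.71 and 3.63 in PHx against 0.81, 2.05 and 1.80 in sham, apart. The 12 h call was lost without sham replicate 3 (adjusted p 0.125) or PHx replicate 2 (0.0987), and the 32 h call without sham replicate 1 (adjusted p 0.0653). At 8 h Acot3 (-1.51) and Acot4 (-1.02), which cleaves succinyl-CoA and bears an E-box, were lower on the deposited scale only. Acot3 stood at 0.93, 2.85 and 1.65 there against 2.96, 3.03 and 3.96 in sham. These calls were lost when any 1 of sham replicates 1, 2 and 3 and PHx replicates 1 and 3 was left out (adjusted p 0.0538 to 0.233) for Acot3 and without sham replicate 3 (adjusted p 0.0878), PHx replicate 1 (0.0854) or PHx replicate 3 (0.0502) for Acot4. Acot8, the broad peroxisomal thioesterase, rose at 12 h in both scalings, to 4.17, 4.36 and 4.62 from 3.66, 3.47 and 2.90 (1.03, adjusted p 0.00141), called without each library.

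Bdh1, the dehydrogenase that interconverts acetoacetate and beta-hydroxybutyrate, was lower in PHx at 4 h, at 6.11, 5.98 and 6.21 against 7.16, 6.76 and 6.69 in sham. The groups were apart, and the difference (-0.77, SE 0.21, adjusted p 0.0033) was called without each library, the doubtful sham library included. TMM scaling ended the call (-0.27, adjusted p 0.272). From 24 h on the difference was 0.43 to 0.50, uncalled, with PHx at 7.68, 7.54 and 7.48 and sham at 7.18, 7.14 and 7.09 at 28 h. The response of Bdh1 differed among the times (adjusted p 0.00269).

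Of the 5 fasting signals and regulators, 1 was higher at 4 h, 4 at 8 h and 2 at 12 h, with 0 lower at these times (TMM 3, 4 and 2 higher). The share of all genes called in either direction was 46.9%, 24.7% and 16.2% at these times, and with TMM 40.4%, 22.2% and 16.7%. The smaller shares of all genes called higher, which match these counts in direction, are given above with the counts of all members. Fgf21, a hormone that liver secretes in fasting and stress, stood at 2.37, 3.17 and 3.64 in PHx against 1.38, 0.87 and 0.12 in sham at 8 h. At 12 h it stood at 2.58, 2.50 and 3.06 against 0.00, 1.02 and 0.00. At 4 h the groups overlapped, at 0.00, 0.92 and 0.42 against 0.00, 0.66 and 0.25. They did not overlap at 8 or 12 h, and the differences there were 2.27 (SE 0.73, adjusted p 0.0202) and 2.37 (adjusted p 0.0226), in both scalings. The 8 h call was lost without sham replicate 3 (adjusted p 0.0994), PHx replicate 2 (0.0569) or PHx replicate 3 (0.0962), and the 12 h call when any 1 of sham replicates 1 and 3 and PHx replicates 1 and 3 was left out (adjusted p 0.0541 to 0.0861).

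Angptl4, an inhibitor of lipoprotein lipase, rose at 4 and 8 h in both scalings and without each library. At 4 h it stood at 5.31, 5.60 and 5.11 in PHx against 2.69, 4.08 and 3.49 in sham (1.92, SE 0.55, adjusted p 0.00414). At 8 h it stood at 5.81, 5.31 and 5.84 against 3.01, 2.82 and 4.88 (2.08, adjusted p 0.00417). The groups were apart at both times. Creb3l3, a hepatocyte transcription factor that acts with PPAR-alpha on Fgf21, rose at 8 h to 7.87, 7.78 and 7.86 from 7.03, 6.94 and 7.03 (0.83, adjusted p 0.00859). At 20 h it stood at 7.95, 7.05 and 7.86 against 6.79, 6.76 and 6.61, higher in both scalings (0.90), a call lost without PHx replicate 1 (adjusted p 0.0563) or PHx replicate 3 (0.0502).

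Vnn1, pantetheinase, which recycles the vitamin part of CoA, rose at 8 h (1.38) and 12 h (1.36) in both scalings. At 12 h it stood at 5.08, 5.48 and 5.38 in PHx against 4.61, 4.19 and 3.07 in sham, apart. The 8 h call was lost without sham replicate 3 (adjusted p 0.0818) or PHx replicate 1 (0.06), and the 12 h call without sham replicate 3 (adjusted p 0.192), PHx replicate 2 (0.0788) or PHx replicate 3 (0.0691). At 20 h it stood at 4.31, 5.20 and 4.16 against 3.86, 3.33 and 2.82, apart, and was 1.22 higher on the deposited scale only, lost when any 1 of sham replicates 2 and 3 and PHx replicates 1 and 2 was left out (adjusted p 0.0568 to 0.202).

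Pdk4, the kinase that turns off pyruvate oxidation, was called on the deposited scale only at 28 h (1.94, SE 0.68, adjusted p 0.0384), and after TMM scaling only at 4 h (2.03, adjusted p 0.0163). At 28 h PHx replicate 2 stood at 5.49, the other PHx libraries at 1.52 and 2.07 and the sham libraries at 0.74, 0.99 and 1.54. The 28 h call was lost without sham replicate 1 (adjusted p 0.116), sham replicate 2 (0.0955) or PHx replicate 2 (0.71, adjusted p 0.492). The same PHx library held Fgf21 at 5.51, against 0.71 and 0.34 in the others, and Angptl4 at 5.62, against 4.49 and 4.07. PHx replicate 2 at 16 h likewise held the highest Pdk4 of its group (5.33 against 2.24 and 1.97), Fgf21 (2.53 against 0.00 and 0.23) and Angptl4 (5.84 against 3.1 and 3.76). At 20 h PHx replicate 2 was the lowest of its group in the same 3 genes, with Angptl4 at 2.85 against 5.54 and 5.48. Mice of 1 group thus differed in several of these signals at once.

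**Figure D4:**
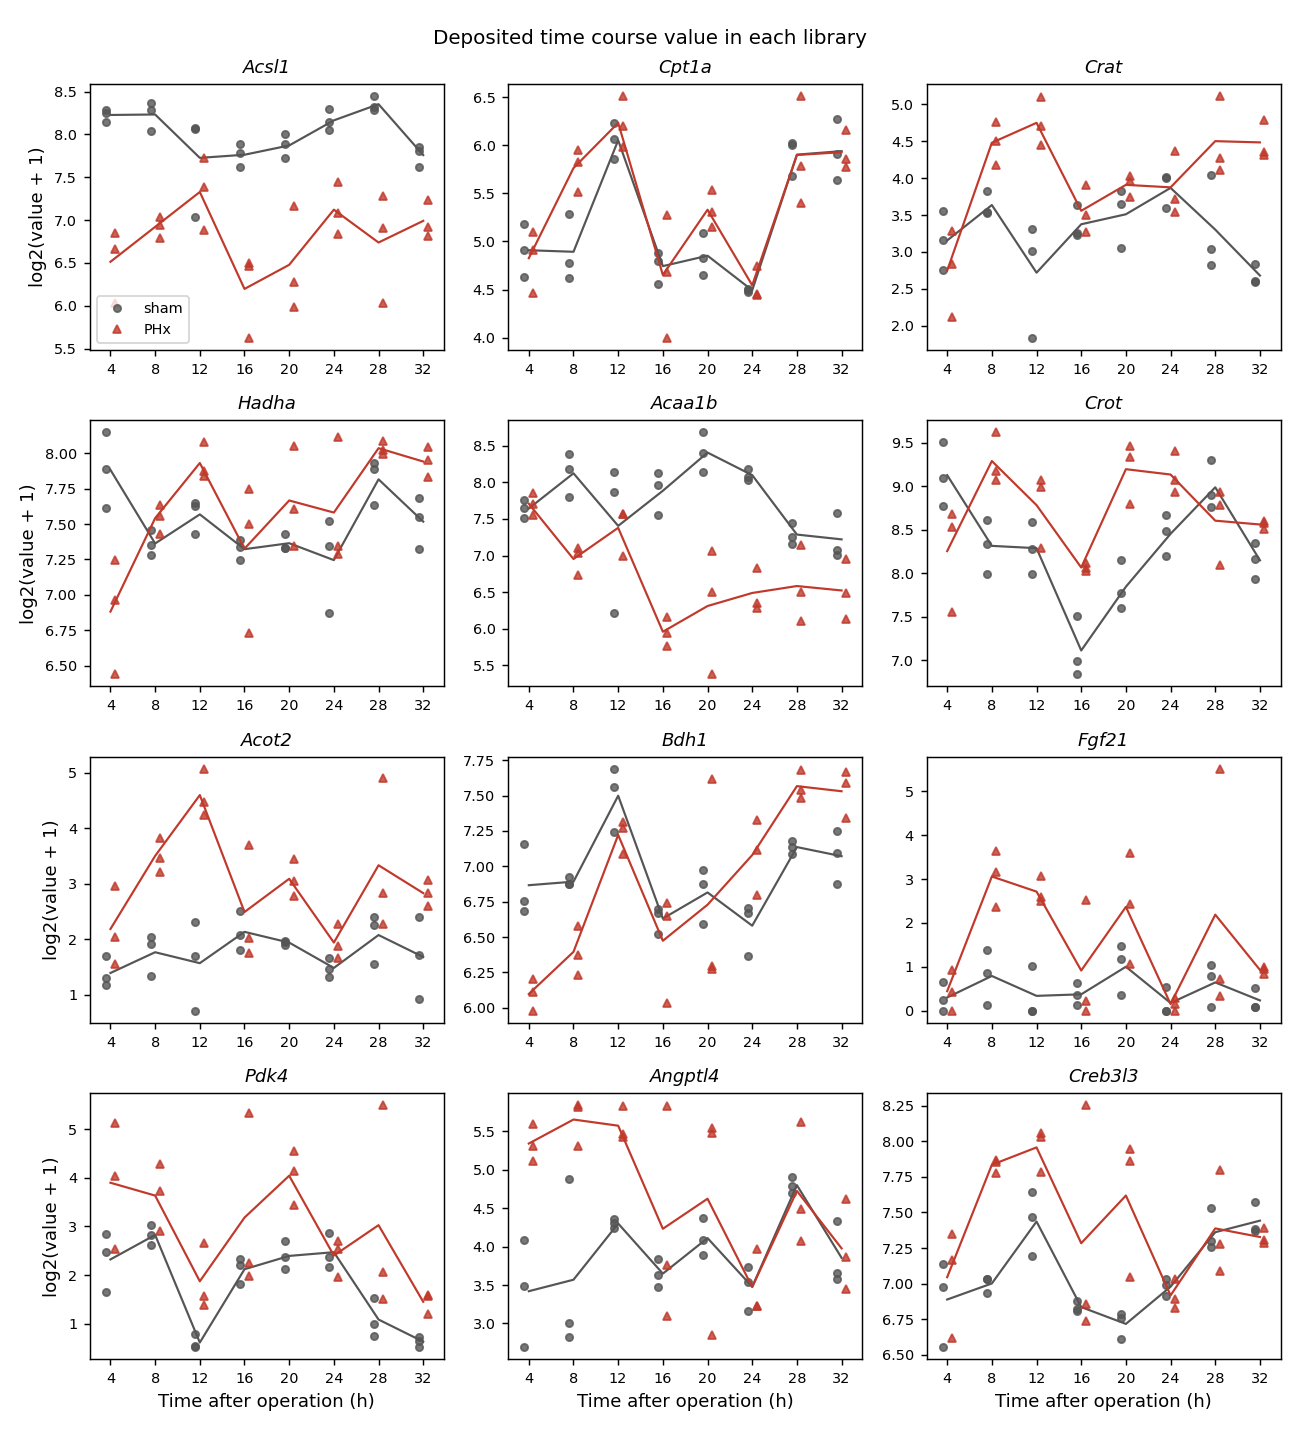
Deposited log2(value + 1) of 12 genes in every morning library, sham and PHx, with lines through the group means against time after the operation and a separate vertical range for each gene. Acot2 and Fgf21 stand apart from sham at 8 and 12 h, and single PHx libraries at 16 and 28 h lie far above their group in Pdk4 and Fgf21.

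Over time, 23 of the 46 genes changed in sham (50%, all genes 50.7%) and 42 after PHx (91.3%, all genes 71.5%). The PHx response differed among the 8 times for 19 (41.3%, all genes 43.5%). The smallest adjusted p in the limma F-test after PHx was that of Cpt1a (1.10e-07), followed by Bdh1 (2.73e-07). Cpt1a moved much alike in both groups. In sham it went from 6.23, 6.07 and 5.86 at 12 h to 4.48, 4.51 and 4.49 at 24 h, and in PHx from 6.20, 6.51 and 5.99 to 4.74, 4.45 and 4.44. Sham livers taken at the same clock hour on consecutive days also differed, with Cpt1a at 4.62 to 5.29 at 8 h and 5.63 to 6.27 at 32 h. Pdk4 went the other way in sham, from 3.03, 2.61 and 2.83 at 8 h to 0.65, 0.73 and 0.52 at 32 h. The library IDs of these times differ in form, so that day and ID series cannot be told apart.

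A 24 h rhythm in sham was called for 16 of the 46 genes by a cosine fit (34.8%, all genes 28.0%). The largest amplitude was that of Acot3, 1.49 on the log2 scale with a fitted peak 15.5 h after the operation, its libraries standing at 4.81, 4.17 and 3.13 at 12 h and 1.49, 0.94 and 1.31 at 4 h. Crot (amplitude 0.75, peak at 3.92 h), Acot4 (0.57, peak at 15 h) and Cpt1a (0.55, peak at 9.48 h) came next. Crot, Acox2, Etfdh, Cpt2, Ech1 and Acsl1 peaked between 2.7 and 4.1 h, and the other 10 between 8.7 and 15.5 h. Leaving out single sham libraries gave 11 to 20 rhythmic members, with 15 when the doubtful sham library at 4 h was left out. In sham Acot3 stood at 2.96, 3.03 and 3.96 at 8 h and at 0.81, 2.05 and 1.80 at 32 h, the same clock hour. Cpt1a also differed between these times, as given above. With times from 4 to 32 h, a rhythm cannot be told apart from change between days or ID series. Fgf21, which bears an E-box as Acot4 does, was not called rhythmic (adjusted p 0.868).

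At 24 h, livers of morning- and night-operated sham mice were taken at opposite hours of the clock. Of the 45 genes listed, 8 differed (all genes 5.35%), 4 higher and 4 lower in the morning group (edgeR quasi-likelihood test on counts, all genes 2.75% and 2.61%). Cpt1a stood at 89.7, 95.8 and 92.6 CPM, the counts scaled to library size, in the morning group and 166, 177 and 174 CPM in the night group. Crot stood at 782, 737 and 880 CPM against 298, 308 and 359 CPM. Pdk4 stood at 20, 15 and 12 CPM against 5.27, 4.06 and 2.23 CPM. None of the 3 genes overlapped between the groups, Cpt1a being lower and the others higher in the morning. The log2 differences, morning minus night, were -0.95 for Cpt1a (SE 0.14, adjusted p 0.00291), 1.25 for Crot (adjusted p 0.00204) and 1.97 for Pdk4 (SE 0.28, adjusted p 0.00261). Crat, at 28.4, 32.8 and 17.0 CPM against 8.19, 10.2 and 9.75 CPM (1.41), and Acox2 (0.65) were also higher in the morning. Angptl4, at 31.7, 30 and 20.1 CPM against 44.2, 60.3 and 101 CPM (-1.43), Eci2, at 72.7, 84.6 and 67.7 CPM against 111, 125 and 165 CPM (-0.91), and Decr2 (-0.67) were lower.

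The calls of Crot and Pdk4 held without each library. The 8 calls became 2 without sham morning replicate 1 and 4 without sham morning replicate 2, sham morning replicate 3 or sham night replicate 2. Cpt1a was lost without sham morning replicate 1 (adjusted p 0.0537), and Crat without sham morning replicate 1 (adjusted p 0.0542) or sham night replicate 1 (0.0509). Angptl4 was lost when any 1 of sham morning replicates 1, 2 and 3 and sham night replicate 2 was left out (adjusted p 0.0643 to 0.113) and stood at -0.94 without sham night replicate 3, its highest library (101 CPM against 44.2 and 60.3 in the other night libraries). Eci2 was lost when any 1 of sham morning replicates 1, 2 and 3 and sham night replicates 1 and 2 was left out (adjusted p 0.0509 to 0.168), Decr2 when any 1 of sham morning replicates 1, 2 and 3 and sham night replicates 1 and 2 was left out (adjusted p 0.0822 to 0.22) and Acox2 when any 1 of sham morning replicates 1, 2 and 3 and sham night replicates 2 and 3 was left out (adjusted p 0.0569 to 0.208).

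After PHx, 0 members were called between morning and night operation at 24 h (edgeR, all genes 0.332%, 0.253% higher and 0.0790% lower), with 6 at an unadjusted p under 0.05 and 2 called by DESeq2. Without PHx night replicate 3, 3 were called. Crot came closest, at 1372, 1232 and 1092 CPM in the morning and 608, 590 and 814 CPM at night (0.95, adjusted p 0.0744). Cpt1a stood at 115, 91.7 and 84.7 CPM against 117, 155 and 172 CPM (-0.54, adjusted p 0.371), the sign seen in sham. PHx night replicate 3 was the highest night library for Pdk4 (25.8 CPM against 5.92 and 3.48), Angptl4 (93.9 CPM against 23.9 and 23.8) and Acot2 (19.3 CPM against 4.12 and 3.69).

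Between night-operated PHx and sham at 24 h, 16 members were called (all genes 23.2%), 3 higher (all genes 11.9%) and 13 lower (28.9% of the 45, all genes 11.3%). Acaa1b stood at 40.1, 62.4 and 106 CPM in PHx against 278, 231 and 271 CPM in sham (-2.17, SE 0.27, adjusted p 7.12e-05). Fabp1 stood at 2418, 8817 and 7741 CPM against 16689, 20116 and 25295 CPM (-1.96, SE 0.38, adjusted p 0.00193). Slc27a2 stood at 376, 531 and 432 CPM against 864, 899 and 1077 CPM (-1.34, SE 0.20, adjusted p 0.000271). Every PHx library was below every sham library in these 3 genes. Their calls held without each library, as did the falls of Acsl1 (-1.11), Decr2 (-0.92), Acsl5 (-0.86), Etfa (-0.85) and Acads (-0.74) and the rises of Crot (0.79) and Acox2 (0.69).

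Of the rises, that of Crot stood at 608, 590 and 814 CPM in PHx against 298, 308 and 359 CPM in sham, and that of Acox2 at 91.4, 91.4 and 114 CPM against 66.2, 48.7 and 40.0 CPM, neither with an overlap. The third rise was that of Crat (18.2, 15.3 and 28.9 CPM against 8.19, 10.2 and 9.75 CPM, difference 0.89), lost without PHx night replicate 3 (0.58, adjusted p 0.17), sham night replicate 1 (0.114) or sham night replicate 2 (0.0766). The other falls were those of Acaa2 (-0.68), lost without PHx night replicate 1 (adjusted p 0.0529), and of Eci1 (-0.68), lost without PHx night replicate 1 (adjusted p 0.0845), PHx night replicate 3 (0.0554) or sham night replicate 3 (0.0773). Hadh (-0.85) was lost when any 1 of PHx night replicates 1 and 3 and sham night replicates 1 and 3 was left out (adjusted p 0.0506 to 0.0942). Echs1 (-0.57) was lost when any 1 of PHx night replicates 1 and 3 and sham night replicates 1 and 3 was left out (adjusted p 0.0653 to 0.103), and Acaa1a (-0.73) when any 1 of PHx night replicates 1 and 3 and sham night replicates 1 and 3 was left out (adjusted p 0.0819 to 0.153). By compartment, 0 of the 17 mitochondrial genes were higher and 6 lower (median -0.24), and 2 of the 8 peroxisomal genes were higher and 3 lower (median -0.35). The median over all genes was 0.01, and the shares of all genes called are those given above for this comparison. The compartments were not tested against them.

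By the same fit, the morning groups at 24 h had 1 member higher, Cd36, and 3 lower (all genes 6.69% and 5.11%): Acsl1 (-1.15), Acsl5 (-0.65) and Acaa1b (-1.67). The test of the difference between the morning and the night response called 0 of 45 (edgeR, all genes 0.489%), with 9 at an unadjusted p under 0.05 and 1 called by DESeq2. Leaving out PHx night replicate 2 gave 1. Slc27a2 came closest, with a morning response 1.27 above the night response on the log2 scale (SE 0.28, adjusted p 0.061). It stood at 804, 746 and 534 CPM in morning-operated PHx and 689, 672 and 662 CPM in morning-operated sham. The larger count at night is therefore not shown to be a difference between operation times.

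**Figure D5:**
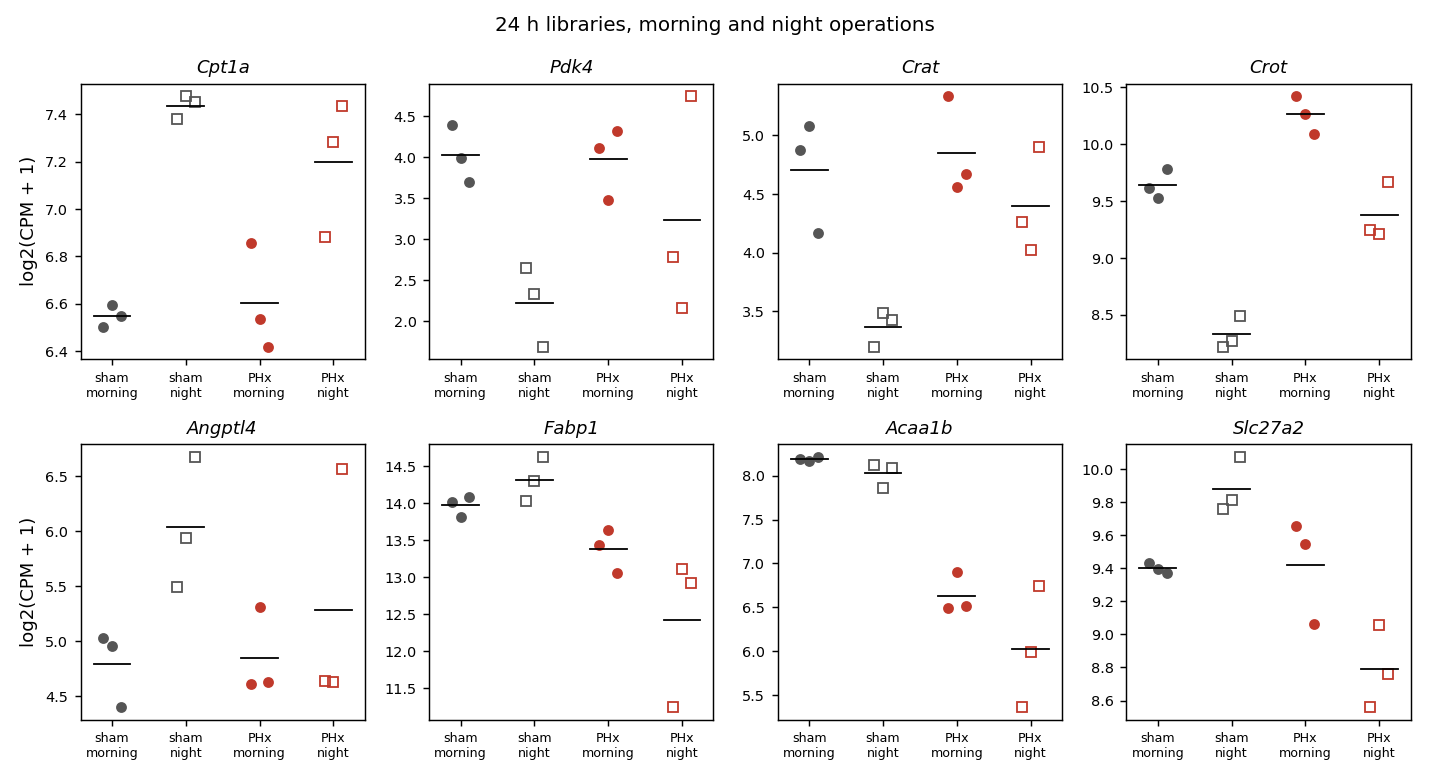
Log2(CPM + 1) of 8 genes in each 24 h library by operation and operation time, with bars at the group means and a separate vertical range for each gene. Cpt1a is lower and Crot higher after morning than after night operation in sham, and Acaa1b, Fabp1 and Slc27a2 have their lowest group mean in night-operated PHx.

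At 4 h after PHx, 2 members differed between morning and night operation (limma on TMM-scaled values, all genes 0.940%), both thioesterases and both lower in the morning (all genes 0.542%). Acot1 stood at 5.6, 4.8 and 3.33 in the morning and 18.2, 17 and 14.8 at night on the deposited linear scale (log2 difference -1.48, SE 0.18, adjusted p 0.0221). Acot2 stood at 6.19, 2.86 and 2.08 against 20.3, 24.7 and 17.6 (-2.1, SE 0.31, adjusted p 0.0332). The groups did not overlap in either gene. The values as deposited, which are not scaled to depth, gave 0 higher and 9 lower without TMM scaling. No share of all genes was set beside these 9, and the part of library depth in them was not tested. On the recovered whole reads edgeR called 2, among 88 genes in all. The count fell to 0 without PHx morning replicate 2 and without each PHx night replicate, and rose to 4 without PHx morning replicate 1. Acot1 was lost when any 1 of PHx morning replicate 2 and PHx night replicates 1, 2 and 3 was left out (adjusted p 0.0559 to 0.136), and Acot2 when any 1 of PHx morning replicates 2 and 3 and PHx night replicates 1, 2 and 3 was left out (adjusted p 0.0566 to 0.175).

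At 4 h after sham surgery, 0 members were called between morning and night (limma on log2(TPM + 1), all genes 0%), 2 had an unadjusted p under 0.05, and TMM scaling also gave 0. Acot2 stood at 2.49, 3.94 and 2.94 TPM in the morning and 4.95, 5.3 and 3.96 TPM at night (adjusted p 0.841). Crot stood at 431, 564 and 154 TPM against 164, 183 and 680 TPM, with replicate 3 of each group nearer the other group. Acot3 was at 0.951, 0.956 and 2.57 TPM against 7.36, 15.5 and 1.26 TPM. Acsl4 showed no such crossing (29.9, 27.6 and 32.5 TPM against 24.5, 26.8 and 23.5 TPM). Whether columns are exchanged was not tested, so the 0 calls do not show that morning and night sham were alike at 4 h.

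Of 36 other genes of the pathway, 35 were tested in the time course. At 4 h 6 were higher and 10 lower (17.1% and 28.6%, all genes 9.32% and 37.6%), which TMM scaling turned to 12 and 5. At 8 h 7 were higher and 8 lower (20% and 22.9%, all genes 6.04% and 18.7%), against 8 and 5 with TMM. At 12 h 8 were higher and 5 lower (22.9% and 14.3%, all genes 7.57% and 8.63%), the same with TMM. At 16 h 0 were higher and 5 lower (all genes 7.31% and 6.35%), against 0 and 7 with TMM. Leaving out single libraries gave 6 to 7 higher and 5 to 8 lower at 8 h, 7 to 8 and 4 to 5 at 12 h, and 0 to 1 and 3 to 6 at 16 h (5 to 7 and 7 to 11 at 4 h). The counts at 20 to 32 h were 5 higher and 8 lower, 1 and 5, 3 and 7, and 4 and 5, and with TMM 3 and 10, 1 and 6, 2 and 13, and 2 and 10. The share of all genes called in either direction was 18.4%, 12.3%, 20.5% and 15.4% at these times, and with TMM 15.8%, 11%, 16.5% and 12.2%. Leaving out single libraries gave 2 to 5 higher and 7 to 10 lower at 20 h, 1 to 2 and 2 to 4 at 24 h, 2 to 5 and 4 to 8 at 28 h, and 2 to 4 and 3 to 6 at 32 h.

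Cyp4a14, a fatty acid omega-hydroxylase, was higher by 3.63 at 12 h, 3.02 at 20 h and 3.43 at 32 h, in both scalings and without each library. Its call at 8 h (2.37) was lost in 4 of the 6 fits that left out a library. In the night-operated comparison at 24 h Cyp4a14 was 2.66 higher (edgeR adjusted p 0.000211), also without each library. Plin2, a lipid droplet coat protein, was 3.02 higher at 8 h (adjusted p 2.84e-05), in both scalings and without each library. Slc16a1, a monocarboxylate transporter that carries ketone bodies, was higher at 6 of the 8 times, by 0.73 to 1.5, in both scalings and without each library. Acadsb, a dehydrogenase of branched short chains, was lower at all 8 times, by values from -0.68 to -1.29. TMM scaling ended its call at 4 h (-0.19, adjusted p 0.438), and leaving out sham replicate 2 that at 12 h (adjusted p 0.0572). Ppara itself was lower at 4 h in both scalings (-1.27, adjusted p 0.00172; TMM -0.85, adjusted p 0.0328). It was also lower in the night-operated comparison at 24 h (-0.74, adjusted p 0.0207), a call lost without any 1 of PHx night replicates 1 and 3 and sham night replicates 1 and 2.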

How the data were processed

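Liver RNA was sequenced in 60 libraries, made with a SMART-RNAseq kit per the labels' protocols. The submitters' processing notes name fastp 0.20.0, HISAT2 2.1.0 and the builds mm8 and mm9, without roles. The counting tool and annotation were not stated, nor whether strand was used. The authors deposited the time course as log2(value + 1) of an expression value whose unit no header names. The authors deposited the 24 h tables as read counts per gene and the 4 h sham table as TPM. The deposited 4 h PHx table holds a signal per gene that its header calls TPM, but each value is the gene's reads multiplied by a fixed factor, with no scaling to depth. Whole reads came back from it for 100% of the values within 0.01, in 11724 of 11840 genes. Read totals were 24611621 to 30192818 at 24 h and, as recovered, 24889376 to 30626647 in PHx at 4 h. The depth of the other libraries is unknown.

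The time course was fitted with limma 3.58.1 (trended variance, means of 16 groups) on genes reaching a value of 1 in 3 or more libraries, with all 48 libraries sharing the estimate of spread. The 24 h counts were fitted with edgeR 4.0.16 (quasi-likelihood, TMM), and the 4 h tables with limma on log2(value + 1), after TMM scaling for PHx. Differences on the log2(value + 1) scale understate the change of low genes. The rhythm in sham was a cosine with a period of 24 h. CPM were computed from the counts. Alternatives were TMM scaling, a pseudocount of 0.1, other filters, DESeq2 1.42.0, a replicate block, only the 6 compared libraries, and each library left out in turn. The edgeR contrast of the morning groups at 24 h, and TMM scaling and left-out libraries for the other pathway genes, were added after seeing the data. The statistics were tested on simulated data. The labels give separate mice as replicates and no shared litter or day, and the p-values measure the spread between these mice.

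The members and gene lists were chosen with earlier results of these data known. Library values are given for the 3 called members with the largest rise and fall in each comparison and, at 1 or more times, for 15 fixed members and for the member of each role with the smallest adjusted p in the F-tests. Further called members are given by their differences. In all, 6 per-sample columns that match no labelled sample were not used. Levels were not compared across tables, since Etfb has 7.32 to 10.4 CPM at 24 h but 768 to 1021 TPM in sham at 4 h. Coordinates are those of RefSeq GRCm38.p6, not of the authors' build. Results of some genes of the wider pathway are not reported here.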

Additional observations from a re-analysis of the deposited data

Results flagged for a closer look

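By a limma F-test of the interaction over all 48 libraries, the PHx response differed among the 8 times for 19 of the 46 genes. They were 41.3% of the members, below the 43.5% of all genes. The values in parentheses are adjusted p. Among uptake and activation genes these were Slc27a2 (0.00305), Acsl4 (0.000529) and Acsl5 (0.0357). In the carnitine shuttle they were Cpt2 (0.000712), Slc25a20 (0.0102) and Crat (0.000215). In the mitochondrion they were Hadha (0.00273), Echs1 (0.0475) and Etfdh (0.00739). Of the peroxisomal genes they were Acaa1b (0.000797), Ehhadh (0.00073), Hsd17b4 (0.0157) and Crot (8.33e-05). Among the thioesterases they were Acot1 (0.00388), Acot2 (0.0258), Acot3 (0.000866) and Acot4 (0.00163). The ketone body gene Bdh1 (0.00269) and the transcription factor Creb3l3 (0.0498) completed the list. After TMM scaling 16 of the 19 stayed called. Times and library series cannot be told apart, and the sham library of doubtful label enters at 4 h. Groups of 3 mice are too small for a test of single outlying libraries.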

How the results depend on the processing

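Members called at 12 and 16 h kept their genes and directions under TMM scaling. TMM scaling changed the 4 h count from 11 to 24 (6 shared) and the count of responses that differ among times from 19 to 32 (16 shared). With only the 6 compared libraries, the counts were 7 at 4 h, 2 at 28 h and 12 at 32 h, from fits with fewer samples. DESeq2 called 2 members between morning and night PHx at 24 h, and 1 for the difference of responses at 24 h, where edgeR called 0 for both. Between morning and night PHx at 4 h, the values as deposited gave 9 in place of 2. The cause of these changes was not tested.

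The labels state no pairing of mice by replicate number. Same-numbered libraries had correlations of deviations from -0.219 to 0.258 over 13 comparisons, and 0 comparisons had all pairs over 0.1. Such correlations cannot settle whether mice were paired. With the replicate block the counts were 12, 23, 19, 9, 15, 7, 11 and 6 at 4 to 32 h, 25 for responses that differ among times, 25 over time in sham, 42 over time after PHx, 14 rhythmic, 16 for PHx against sham at night and 9 in sham at 24 h, 0 in PHx at 24 h, 0 for the difference of responses, 1 in PHx at 4 h and 0 in sham at 4 h.

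Leaving out each library in turn gave 9 to 12 calls at 4 h, 15 to 20 at 8 h, 12 to 17 at 12 h, 7 to 9 at 16 h, 8 to 19 at 20 h, 3 to 5 at 24 h, 5 to 11 at 28 h and 3 to 5 at 32 h. It gave 15 to 26 for responses that differ among times, 20 to 26 over time in sham, 40 to 44 after PHx and 11 to 20 rhythmic. It gave 11 to 17 for PHx against sham at night, 2 to 10 in sham and 0 to 3 in PHx at 24 h, 0 to 1 for the difference of responses, 0 to 4 in PHx and 0 to 0 in sham at 4 h. Of 7471 values of single members under the alternatives, 7063 kept their direction and side of the threshold, 246 lost a call, 158 gained one in the same direction and 4 turned with a call gained. TMM scaling accounts for 24 of the losses and 40 of the gains. The 4 that turned were all at 4 h under TMM scaling, from uncalled values below 0 to 0.40 for Acads, 0.37 for Acadvl, 0.33 for Echs1 and 0.34 for Acaa2. Depth is unknown for the time course, and 3 mice a group limit what could be called.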
